A study of Penaeus vannamei with 6 samples.

Results

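The tissue was gill of juvenile whiteleg shrimp (Penaeus vannamei, the L. vannamei of the series' text). In it, 467 assembled transcripts held similar levels, as deposited, in every library across 3 culture salinities. They were chosen by their measured levels. The rule asked for a mean over the 6 libraries of at least 30 and under 1000 RPKM (reads per kilobase, at equal total reads of all libraries), and for a highest library at most 3 times the lowest. Of 341828 assembled transcripts, 2149 had a mean in that range, and 467 of these, or 21.7%, met the limit of 3. The other 1682 are called the uneven transcripts of the same range below. Evenness is therefore what selected the 467, and their levels are given as a description with no test. It was measured on the deposited RPKM. With TMM factors, a scaling described below, only 110 of the 467 stayed within the limit of 3.

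The libraries came from gill messenger RNA of animals kept in fresh water, brackish water or seawater, with 2 libraries of each group analysed here. The design text of the series speaks of triplicates. The labels give no salinity values, no duration of culture and no strain, and they do not say whether a group's libraries are separate animals, pools or repeat preparations. The spread between libraries may therefore be technical. Depth ran from 16500257 to 37027007 reads. Brackish water library 2 stood apart from the rest, where the 10 leading transcripts took 41.2% of the reads, while they took 9.63% to 16.3% elsewhere. In bulk tissue of this kind, fewer cells of a type and less RNA per cell cannot be told apart.

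The shrimp gill is lined by an epithelium that exchanges gases and moves salts, and its ion pumps, among them the Na+/K+-ATPase and the V-type proton ATPase, are the usual subject of salinity studies. Against such responsive genes stand those that serve every cell whatever the medium, such as the genes of ribosomal proteins, cytoskeletal actin and tubulin, and translation elongation factors. Genes of that second kind are often taken as internal references in quantitative PCR, on the condition that their level does not move with the treatment. The files pair the transcripts with no gene name or description. Their IDs are assembly labels, which cannot match the RefSeq gene table of the species, and 0 did. Sequences were not compared. No function is therefore assigned to any of the 467, and the gill label could not be set against marker genes.

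The flattest of the 467 was comp240609_c0_seq1, a transcript of 1519 bases and the sole form of its assembly component, a component being a set of assembled forms that share sequence. It stood at 31.7 and 32.1 RPKM in the seawater pair, 25 and 31.8 in the brackish pair, and 29 and 31.4 in the fresh pair. Its highest library was 1.28 times its lowest, and the brackish pair overlapped both other pairs. Next came comp232766_c0_seq1, of 1802 bases, with 221 and 250.3 RPKM in the seawater pair, 188 and 198 in the brackish pair, and 215 and 213 in the fresh pair. Its ratio was 1.33, with both seawater libraries above the other 4. The third, comp233264_c0_seq3, was an abundant transcript of 1244 bases with a ratio of 1.41. It stood at 922 and 993 RPKM in the seawater pair, 983 and 754 in the brackish pair, and 706 and 800 in the fresh pair. Seawater library 2 was its highest library and fresh water library 1 its lowest. Only 7 of the 467 had a ratio at or under 1.5, 104 had one at or under 2, and the median was 2.38. Many of the 467 thus lay near the limit, and the quartiles of the ratio were 2.04 and 2.73.

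The limits set the edges of the list. Just inside the limit of 3 was comp226111_c0_seq1, with a ratio of 2.998. Just outside it was comp246226_c0_seq2 at 3.001, and 354 transcripts of the same range lay between 3 and 4. At the lower edge of abundance comp246799_c1_seq14 had a mean of 30.1 RPKM, and comp247289_c0_seq1, left out, had 29.9 with a ratio of 1.56. At the upper edge comp241195_c1_seq7 had a mean of 986 RPKM, and comp232766_c0_seq2, left out, had 1007 with a ratio of 1.499. The excluded comp232766_c0_seq2 is another form of the component that holds the second flattest transcript.

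On RPKM, evenness was more frequent among abundant transcripts than among rare ones. The share with a ratio of at most 3 was 4.82% of the 12819 transcripts at 1 to 3 RPKM and 9.40% of the 2905 at 10 to 30 RPKM. It was 18.0% at 30 to 100 RPKM, 24.3% at 100 to 300, 35.6% at 300 to 1000 and 45.5% among the 110 of 1000 RPKM or more. Reads behind the values differ along the same axis, since the library with fewest reads held a median of 9 reads in the lowest of these classes and 451 in the class of 30 to 100 RPKM. The part of read depth in this gradient was not tested. With RPKM divided by TMM factors, a scaling described below, the share went from 28.2% at 1 to 3 RPKM up to 38.9% at 3 to 10 RPKM. From there it fell to 36.5% at 10 to 30 RPKM, 27.1% at 30 to 100 RPKM and 1.82% at 1000 RPKM or more. The rise over the classes from 30 RPKM upward was found on RPKM and was reversed with TMM factors.

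**Figure D1:**
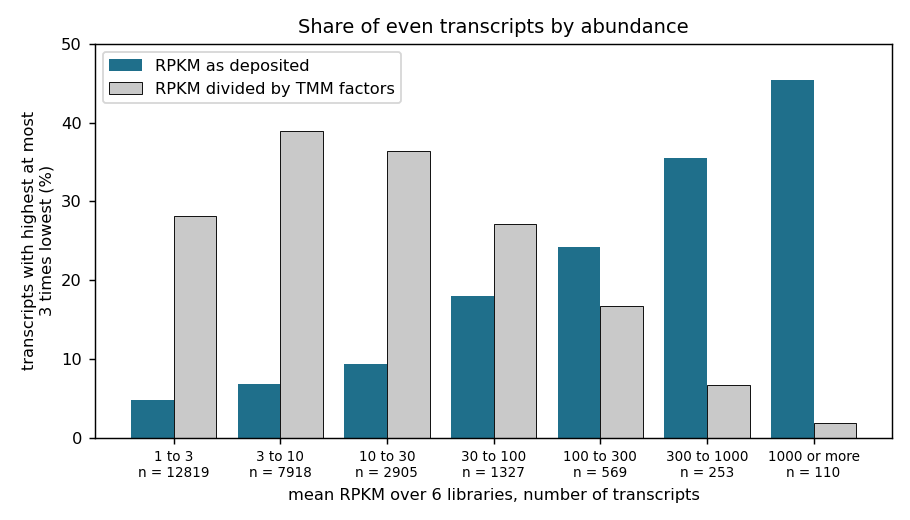
Percent of transcripts whose highest library was at most 3 times the lowest (vertical axis) in 7 classes of mean RPKM (horizontal axis, with the number of transcripts), on RPKM as deposited and after division by TMM factors. On RPKM the share goes from 4.82% to 45.5%, and with TMM factors it goes from 28.2% in the lowest class to 38.9% at 3 to 10 RPKM and down to 1.82% in the highest.

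Within the list the same held on RPKM. The 239 members of 30 to 100 RPKM had a median ratio of 2.47, the 138 of 100 to 300 RPKM one of 2.39, and the 90 of 300 to 1000 RPKM one of 2.15. A ratio at or under 2 was found in 16.7%, 21.0% and 38.9% of these classes. The most abundant members were comp241195_c1_seq7, comp216652_c0_seq2 and comp249458_c1_seq2, with means of 986, 982 and 973 RPKM. Among them comp241195_c1_seq7 was uneven between replicates, at 677 and 1673 RPKM in the seawater pair, 1023 and 577 in the brackish pair, and 962 and 1005 in the fresh pair. Its lowest and highest values thus lay in brackish water library 2 and seawater library 2, and the groups overlapped. The levels of comp216652_c0_seq2 were 1340 and 1112 RPKM in the seawater pair, 971 and 911 in the brackish pair, and 714 and 842 in the fresh pair. Its groups did not overlap and stood in the order seawater, brackish water, fresh water. For comp249458_c1_seq2 the levels were 1327 and 1433 RPKM in the seawater pair, 800.1 and 797 in the brackish pair, and 786 and 694 in the fresh pair. Here too seawater was highest and fresh water lowest without overlap, though brackish and fresh water nearly touched.

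Counting error was small beside these differences. Every one of the 467 had at least 101 reads in every library, and 336 had at least 1000. Taken as the inverse square root of the reads, the counting error of the member with fewest reads was 9.95% in seawater library 1, the shallowest library. At the median member it lay between 1.32% and 2.02% in the 6 libraries. These figures cover counting error only, since reads of one amplified molecule are not independent. Replicate libraries differed by far more, by a median of 1.31-fold in the seawater pair, 1.44-fold in the brackish pair and 1.13-fold in the fresh pair. Differences over 2-fold between replicates occurred in 77 members in the seawater pair, 96 in the brackish pair and 2 in the fresh pair. Fresh water was also the closest pair among the uneven transcripts of the same range, at a median of 1.28-fold against 2.13-fold in seawater and 2.90-fold in brackish water, over the 1617 of them with reads in all libraries.

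Spread between groups was set beside spread between replicates by 2 unlike measures. A group mean averages 2 libraries, which narrows its spread, while a replicate difference is between single libraries. The rule bounds both, so their similar size does not show that groups differed no more than replicates. The range of the 3 group means, taken on log2 RPKM, was a median of 1.61-fold, and the largest difference between replicates of a group was a median of 1.71-fold. The group range was wider than the widest replicate pair in 211 members and not in 256. The widest pair was the brackish water pair in 244 members, the seawater pair in 174 and the fresh water pair in 49.

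**Figure D2:**
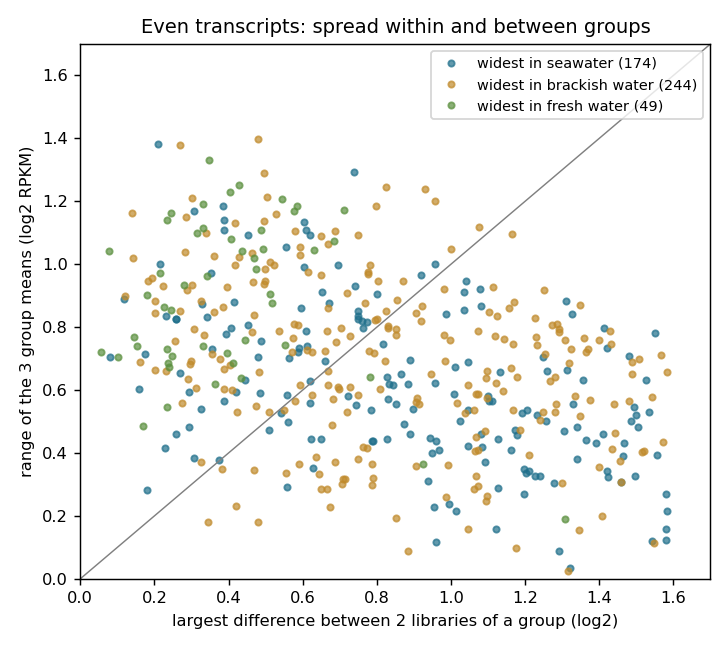
Each point is 1 of the 467 even transcripts, with the largest log2 difference between 2 libraries of the same group on the horizontal axis and the range of the 3 group means of log2 RPKM on the vertical axis, coloured by the group with the widest pair. The 211 points above the diagonal have a wider range between groups than within any group, and the 256 others do not.

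The libraries left a common mark on the members. Brackish water library 2 was the lowest of the 6 in 260 of the 467 and the highest in 2. Seawater library 2 was the highest in 209 and the lowest in 7, and seawater library 1 was the highest in 134. Median levels over the members were 93.9 and 133 RPKM in the seawater pair, 93.9 and 67.2 in the brackish pair, and 90.7 and 94.9 in the fresh pair. Relative to each transcript's own mean, the median log2 deviation was 0.16 and 0.39 in the seawater pair, 0.04 and -0.47 in the brackish pair, and -0.06 and 0.03 in the fresh pair. Together the members took 13.5% and 15.5% of all reads in the seawater pair, 11.5% and 9.03% in the brackish pair, and 10.6% and 10.8% in the fresh pair. The part of its dominant transcripts in the low values of brackish water library 2 was not tested. When library totals were taken without the 10 most abundant transcripts of each library, all values of a library rose by 1 factor. The median deviation of brackish water library 2 was then -0.01, and it was the lowest library in 87 members in place of 260. With TMM factors, a scaling described below, it was instead the highest library in 235 members, at a median deviation of 0.88. Without that library the rule would have kept 877 transcripts, 464 of the 467 among them, and the members' median ratio would have been 1.96. Without any other single library it would have kept 475 to 742.

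**Figure D3:**
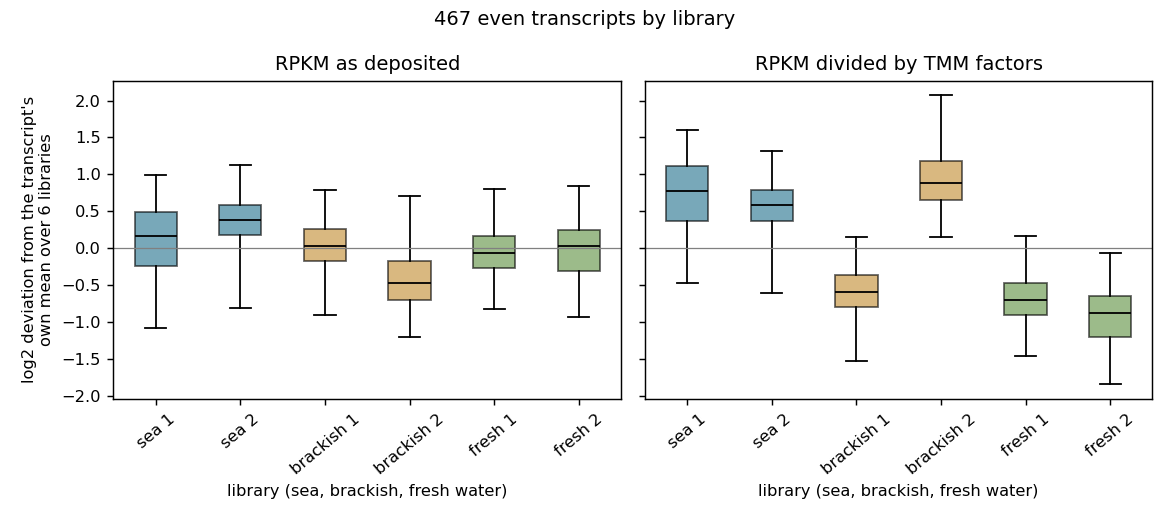
Box plots over the 467 even transcripts of the log2 deviation of each library from the transcript's own mean over 6 libraries, on RPKM as deposited (left) and after division by TMM factors (right). Boxes span the quartiles with the median as a line, and whiskers reach the lowest and highest transcript. On RPKM the medians lie between -0.47 and 0.39, and with TMM factors between -0.88 and 0.88.

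Seawater had the highest group mean in 321 members, fresh water in 126 and brackish water in 20. Brackish water had the lowest mean in 248, fresh water in 171 and seawater in 48. The most frequent orders were seawater over brackish water over fresh water, in 161, and seawater over fresh water over brackish water, in 160. A stepwise order from fresh water down to seawater was found in 38. The place of brackish water rests on the pair of libraries with the largest median difference between replicates.

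Fresh water set against seawater gave a median log2 ratio of mean RPKM of -0.28 over the members, from -1.39 to 1.02, with 331 lower and 136 higher. The fresh water libraries both lay under the seawater libraries in 216 members, against a background of 11.5% of the 25901 transcripts whose mean reached 1 RPKM. Both lay above in 48 members, against a background of 65.8%. Because the rule bounds these differences and used the same values, nothing is read from the counts. The members with the most positive ratios were comp249193_c0_seq3, a single-form transcript of 6187 bases, and comp238003_c0_seq1. In comp249193_c0_seq3 the levels were 18.5 and 29.9 RPKM in the seawater pair, 45.5 and 22.7 in the brackish pair, and 43.2 and 54.8 in the fresh pair. Fresh water lay above seawater without overlap, and the brackish water libraries fell on either side of seawater library 2. In comp238003_c0_seq1 they were 32.6 and 33.2 RPKM in the seawater pair, 33.8 and 25.3 in the brackish pair, and 69.1 and 59.3 in the fresh pair. The fresh water pair stood alone there, at a log2 ratio of 0.97 to seawater and 1.12 to brackish water. The most negative ratios were those of comp240714_c0_seq11 and comp241666_c1_seq4, at -1.39 and -1.38. The first had 111 and 115 RPKM in the seawater pair, 63.4 and 88.5 in the brackish pair, and 47.5 and 38.7 in the fresh pair. The second had 186 and 202 RPKM in the seawater pair, 98.1 and 81.4 in the brackish pair, and 81.5 and 68.1 in the fresh pair. Both were highest in seawater without overlap, and in the second the brackish and fresh water libraries were close.

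**Figure D4:**
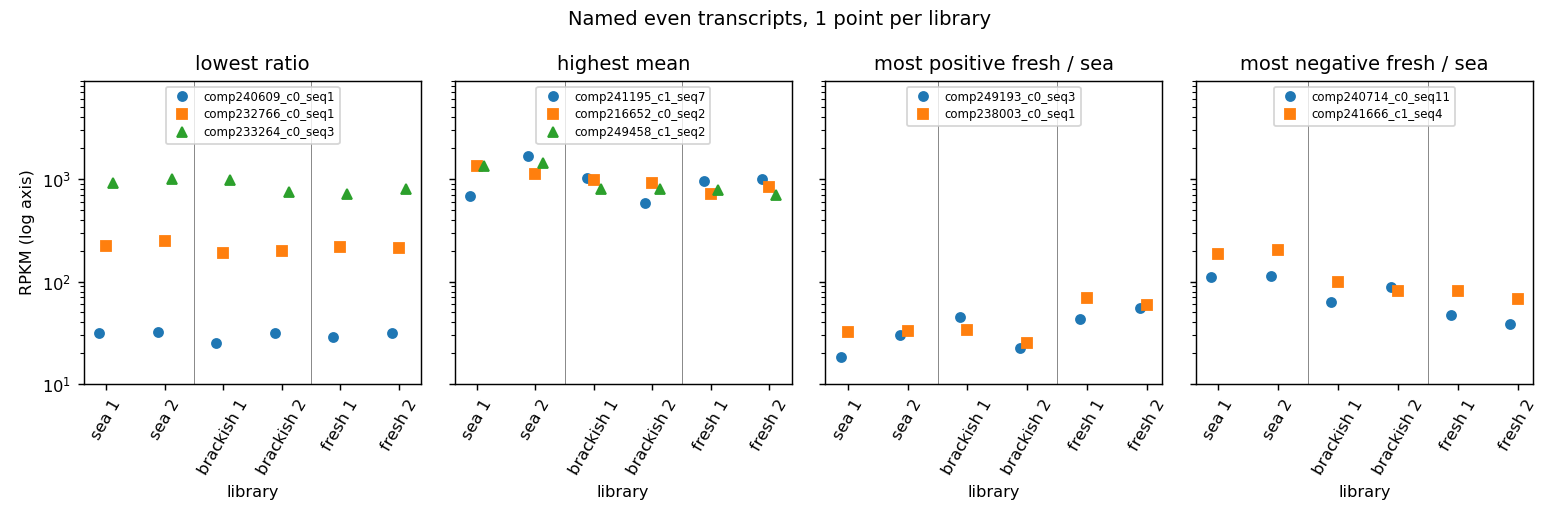
RPKM on a log axis in each of the 6 libraries, 1 point per library, for the 3 even transcripts with the lowest ratio, the 3 with the highest mean, and the 2 each with the most positive and most negative ratio of fresh water to seawater means. Vertical lines part the groups. The flattest transcripts stay within 1.28 to 1.41 times from lowest to highest library.

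Brackish water set against seawater gave a median log2 ratio of -0.46, with 409 members lower and 58 higher. Both brackish water libraries lay under both seawater libraries in 207 members, against a background of 11%, and above them in 0, against a background of 14.8%. Fresh water set against brackish water gave a median log2 ratio of 0.14, with 286 higher and 181 lower. The groups did not overlap in 146 members that were higher in fresh water, against 35.2% of all tested transcripts, and in 90 that were lower, against 4.04%. All 3 pairs share libraries with each other, and their values are not independent.

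In the fit of all 25901 transcripts by limma on log2(RPKM + 1), 0 of the 467 were called in any of the 3 pairs at an adjusted p under 0.05. Over all tested transcripts the calls came to 3.67% when fresh water was set against seawater, 0.0734% when brackish water was, and 0.27% between fresh and brackish water. At an unadjusted p under 0.05 there were 10, 3 and 1 members in these pairs, all of them lower in the first-named group. The rule used the same contrasts, and no share over all transcripts is given at the unadjusted threshold, so nothing is read from these counts. The standard error of a member's log2 difference ran from 0.41 to 0.93, with a median of 0.79. In limma these errors are drawn toward a trend with abundance over all tested transcripts. They are therefore not a measure of the members' own spread between replicates. The largest log2 difference of any member was 1.38 in size. By edgeR on the recovered reads 0 members were called in each pair, against a background of 0% of 43835 transcripts, with 143, 0 and 58 members at an unadjusted p under 0.05. DESeq2 called 74 members in fresh water against seawater, all lower. Of the 45110 transcripts with an adjusted p in that pair it called 14.2%, and 5.19% were called lower. In brackish water against seawater and in fresh against brackish water DESeq2 called 0 members, against backgrounds of 7.79% and 1.07%. At an unadjusted p under 0.05 DESeq2 gave 247, 0 and 156 members. With DESeq2 size factors all 467 had a lower mean in fresh water than in either other group. For edgeR and DESeq2 no share over all transcripts is given at that unadjusted threshold, so nothing is read from these unadjusted counts. Without brackish water library 2 limma called 7 in fresh water against seawater, all lower, while its calls over all 27851 tested transcripts came to 41.3%, of which the lower ones were 3.07% of those tested.

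Setting brackish water against seawater, the authors' deposited table marked 14 of the 467 as significant, or 2.998%, against a background of 1.18% of the 309408 transcripts with a read. For fresh water, the authors' deposited table marked 24 of the 467, or 5.14%, against a background of 17.6% of the same 309408. That authors' deposited table lists only part of the transcripts, 97 members among them, and marked 24.7% of the listed members and 98.1% of all it lists. All of the marked members were lower than in seawater, a direction in which the authors' deposited marks covered 0.35% of the 309408 in brackish water and 0.37% in fresh water. In the authors' deposited table of the 3 groups, 93 members had an unadjusted p under 0.05, against a background of 11.6%, with a lowest p of 5.34e-05 and a median of 0.297. In the 2 tables against seawater, the authors' deposited marks went with an unadjusted p under 0.05 and a mean RPKM over 2-fold apart, with 0 exceptions, and the limit of 3 leaves room for such a difference. In fresh water 41 members were more than 2-fold lower than in seawater and 1 was more than 2-fold higher.

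Evenness depended on how the libraries were scaled. TMM factors, which scale each library so that the bulk of its transcripts match those of the other libraries, were 0.655 and 0.874 in the seawater pair, 1.54 and 0.391 in the brackish pair, and 1.55 and 1.87 in the fresh pair. After division by them only 110 of the 467 kept a ratio of at most 3, the median ratio was 4.33 and the highest 10.9. The rule applied to the TMM-scaled values would have chosen 403 transcripts, of which 109 were members. These are 23.3% of the 467 and 27.0% of the 403. The flattest member on RPKM, comp240609_c0_seq1, had a ratio of 5.01 on this scale. With DESeq2 size factors 92 members met the rule, and with quantile normalization 409 did.

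Scaling also set the sign of the group differences. On log2(RPKM + 1) the median difference of fresh water from seawater was -0.23 over the members and 0.89 over all tested transcripts. With TMM factors it was -1.38 over the members and 0.08 over all, and all 467 had a lower mean in fresh water. With quantile normalization it was 0.04 over the members and 0.00 over all. The rule bounds the members' differences on RPKM, and the TMM factors scale all transcripts of a library alike, so nothing is read from the distance between the members and all tested transcripts. On log2(RPKM + 1) the uneven transcripts of the same range had a median of 0.27 in fresh water against seawater, above that of the members, and of -0.59 in brackish water against seawater, below it. The members' difference of brackish water from seawater was -0.44 over the members on RPKM, -0.48 with TMM factors and 0.05 with quantile normalization. That of fresh from brackish water was 0.16, -0.94 and 0.01.

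Under all 4 scalings, 79 members from 72 components met the rule, or 16.9% of the 467. These 79 were longer than the remaining members, with a median of 1933 bases against 1202, and less abundant, with a median of 61.0 RPKM against 108. With TMM factors 27.1% of transcripts at 30 to 100 RPKM were within the limit, and 6.72% at 300 to 1000. The selection thus favours low abundance. Members of these classes had median lengths of 1432 and 1004 bases, so nothing is read from either contrast. On RPKM 75 of the 79 had their lowest value in brackish water library 2, and 64 had a higher mean in fresh water than in seawater. The selection itself favours both traits, since TMM factors were lowest in brackish water library 2 and highest in the fresh pair. A transcript that stays even after division by them tends to be low or high there on RPKM. Nothing is therefore read from these counts. The 3 whose worst ratio over the 4 scalings was lowest, chosen after their values were seen, were comp237564_c0_seq3, comp235214_c0_seq2 and comp236147_c0_seq3. The first, of 2220 bases, had 43.8 and 61.6 RPKM in the seawater pair, 65.2 and 34.8 in the brackish pair, and 62.5 and 79 in the fresh pair. Its ratio was 2.27 on RPKM and 2.21 with TMM factors. The second, of 2077 bases, had 28.2 and 32.5 RPKM in the seawater pair, 47.4 and 25.1 in the brackish pair, and 53.4 and 53.3 in the fresh pair. Its ratio was 2.13 on RPKM and 2.25 with TMM factors. The third, of 3664 bases, had 55.1 and 53.8 RPKM in the seawater pair, 70.1 and 31.8 in the brackish pair, and 70.3 and 72.5 in the fresh pair. Its ratio was 2.28 on RPKM and 2.17 with TMM factors. In all 3 brackish water library 2 was the lowest on RPKM and fresh water lay above seawater, the pattern that the selection favours.

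Length and assembly structure were not part of the rule. The members had a median length of 1273 bases, from 201 to 12218, against 1105 among the uneven transcripts of the same range. The shortest was comp235490_c0_seq7 and the longest comp250073_c0_seq2. That long transcript had 17.4 and 46.2 RPKM in the seawater pair, 34.9 and 36.5 in the brackish pair, and 47 and 51.4 in the fresh pair, so that seawater library 1 alone set its ratio of 2.96. By length the share of even transcripts in the range was 18.7% under 500 bases, 18.6% at 500 to 1000 bases, 24.2% at 1000 to 2000 bases, 25.8% at 2000 to 4000 bases and 17.4% at 4000 bases or more. A component with a single transcript was the source of 43.0% of the members and of 44.9% of the uneven transcripts. No test was made of these differences, since transcripts of one component share sequence and are not replicates.

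The 467 came from 371 components. Of these 309 held 1 member and 62 held 2 to 7, so that 158 members shared a component with another, and reads may be divided between such forms. Of the 371 components 201 had 1 transcript. In the other 170 the members held a median of 92.3% of the component's reads. Summed over all transcripts of the component, 137 of the 170 had a highest library at most 3 times the lowest, with a median ratio of 2.52 and a highest of 7.07. Beside the members these components held 382 further transcripts, of which 250 had a mean under 30 RPKM, 109 were uneven at 30 to 1000 RPKM and 23 were at 1000 RPKM or more. The 109 had a median ratio of 3.72, and 5 of them had one over 10. In the uneven transcripts of the range as a whole the median was 6.81, with a lowest value of 0 counted as an infinite ratio, and 644 had one over 10. In 33 components, then, an even transcript stood in a component whose summed level was not even.

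Of all the components, 2 held 7 members each. In comp242472_c0 the 7 members, of 1219 to 2836 bases, took 99.96% of the reads, and the eighth form had a mean of 0.477 RPKM. Its most abundant member, comp242472_c0_seq25, had 71.9 and 191 RPKM in the seawater pair, 197 and 109 in the brackish pair, and 132 and 197 in the fresh pair. The next form, comp242472_c0_seq23, had 71.5 and 198 RPKM in the seawater pair, 167 and 92.9 in the brackish pair, and 143 and 179 in the fresh pair. Both were lowest in seawater library 1, whereas comp242472_c0_seq19 and comp242472_c0_seq13 were lowest in brackish water library 2, at 68.8 and 65.6 RPKM, with seawater library 1 at 88.6 and 79.7. In comp235490_c0 the 7 members took only 13.4% of the component's reads. Its most abundant member, comp235490_c0_seq6, had 178 and 302 RPKM in the seawater pair, 151 and 135 in the brackish pair, and 251 and 245 in the fresh pair. The members comp235490_c0_seq1, comp235490_c0_seq21 and comp235490_c0_seq7 had ratios of 2.004, 2.11 and 1.94. The dominant form of the component, comp235490_c0_seq9, was no member, with 5281 and 4585 RPKM in the seawater pair, 2433 and 1750 in the brackish pair, and 2769 and 2031 in the fresh pair. It was highest in seawater without overlap, as was the member comp235490_c0_seq7, while in the other 6 members the seawater pair overlapped another pair.

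**Figure D5:**
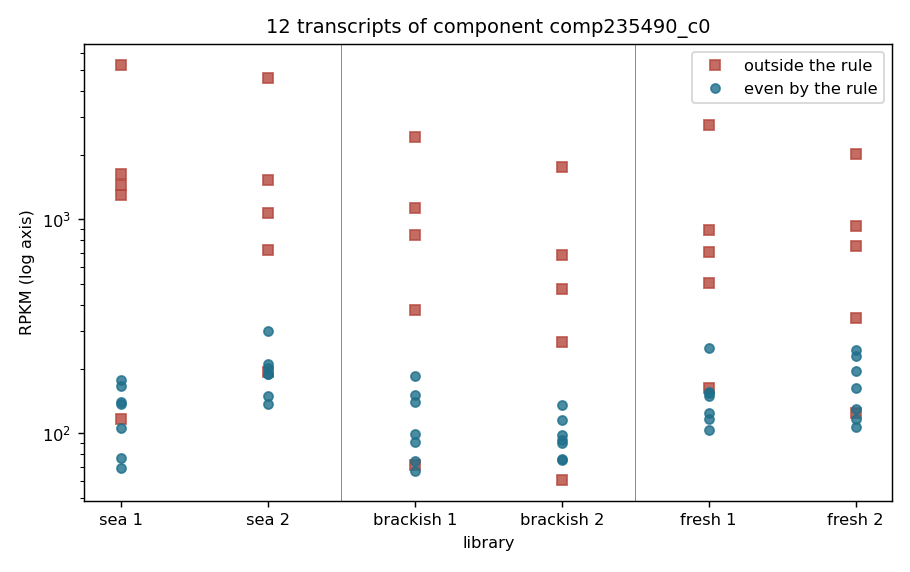
RPKM on a log axis in each of the 6 libraries for the 12 transcripts of component comp235490_c0, with the 7 even by the rule as circles and the 5 outside it as squares. The top square, comp235490_c0_seq9, lies between 1750 and 5281 RPKM, and the 7 circles lie between 66.95 and 302 RPKM.

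Across the 467 members, Pearson's r of log2 RPKM between libraries was 0.978 for the fresh water pair, 0.919 for the seawater pair and 0.933 for the brackish water pair. Over all pairs of libraries it ran from 0.882, between seawater library 1 and fresh water library 2, to 0.978. Brackish water library 1 had r of 0.951 with fresh water library 2, and brackish water library 2 had r of 0.958 with seawater library 2, both above the r of the brackish water pair. These values are across transcripts, which share libraries and are no replicates, and their spread in abundance raises r.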

How the data were processed

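Gill mRNA libraries of 3 groups, 2 libraries each, were grouped by the treatment in the labels. The authors deposited RPKM per library and assembled transcript, per the file headers. The tables against seawater, per the file headers, also hold the authors' mean read count of a group (an estimated count), log2 fold change and p-value. The sources used here do not name the assembler, aligner or counting tool. RPKM multiplied by length gave whole reads within 0.1 read for 100% of values above 0, and their means equalled 100% of the deposited mean counts.

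The rule was applied to the 6 RPKM columns. Members, lists and tests were chosen with earlier results of these data known. Since the values were RPKM, limma 3.58.1 with a trend was fitted on log2(RPKM + 1) for the 25901 transcripts whose mean reached 1 RPKM, with group as the only term (3 residual degrees of freedom) and adjustment by Benjamini-Hochberg over all. On recovered reads, edgeR 4.0.16 quasi-likelihood tests (0 calls among 43835 transcripts in any pair) and DESeq2 1.42.0 (6399 calls among the 45110 transcripts with an adjusted p in fresh water against seawater) were alternatives, and TMM and DESeq2 factors rescaled RPKM. The main limma fit, edgeR with TMM and DESeq2 were tested on simulated data. The simulated libraries shared 1 composition apart from transcripts changed in fresh water, unlike the libraries here. The rescaled, blocked and reduced fits were not tested in this way. Group differences given as log2 ratios are of mean RPKM, without a pseudocount.

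Transcripts were named by a rule: the 3 with the lowest ratio, the 3 with the highest mean, the longest and shortest, the 2 each with the most positive and most negative ratio of fresh water to seawater, up to 4 members of the component with most members (both of 2 tied components), and those next to each limit. Beyond it, comp235490_c0_seq9 and the 3 most even under 4 scalings were picked after their values were seen.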

Additional observations from a re-analysis of the deposited data

How the results depend on the processing

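The number of even transcripts, 467, was within 1.5 times under TMM factors (403), DESeq2 size factors, quantile normalization (683) and counting by components (328). A similar number does not mean the same list. Of the 467, 109 were chosen with TMM factors, 92 with DESeq2 size factors and 409 with quantile normalization. The 328 counts components in place of transcripts and is not the number of components that hold a member, 371. It was 104 with a limit of 2, 821 with a limit of 4 and 740 with a floor of 10 RPKM. Among choices made after seeing the data, it was 719 with library totals taken without the 10 most abundant transcripts and 712 with each library divided by the members' own median. Leaving out 1 library gave 475 to 877, the highest without brackish water library 2 and 742 without seawater library 1.

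With all 6 libraries kept, calls among the 467 stayed at 0 in every alternative when brackish water was set against either other group. Calls over all tested transcripts there ran from 0% to 7.79% against seawater and from 0% to 1.07% against fresh water, both highest by DESeq2. In all 3 pairs, limma with TMM factors, DESeq2 size factors or quantile normalization called 0 of all tested transcripts, as did both edgeR fits. The rule also bounds the members' differences, so nothing is read from the calls among the members. For fresh water against seawater they were 74 by DESeq2, which called 14.2% of those with an adjusted p, 0 to 7 with 1 library left out, and 0 otherwise. Over all tested transcripts the calls in that pair, 3.67%, came to 0.0547% to 41.3% with 1 library left out, at 37.9% and 41.3% without the first or second brackish library, 1.05% and 1.73% without the first or second seawater library, and 0.466% and 0.0547% without the first or second fresh one. With library number as a replicate block, 0 of the 467 were called in each of the 3 pairs. Over all 25901 tested transcripts that fit called 2.05% in fresh water against seawater, 0.151% in brackish water against seawater and 0.483% in fresh against brackish water. The differences of library 1 from library 2 correlated at 0.27, -0.46 and -0.41 between groups. Each group gives only 1 such library difference, so these values cannot decide whether the numbers pair the libraries.

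The members' median difference of fresh water from seawater, -0.23, was -1.38 with TMM factors, -1.41 with DESeq2 size factors, 0.044 with quantile normalization, and -0.45 to -0.19 with 1 library left out, the first without seawater library 1. That of brackish water from seawater, -0.44, was 0.053 with quantile normalization and -0.72 to -0.21 with 1 library left out, the first without brackish water library 1 and the second without brackish water library 2. That of fresh from brackish water, 0.16, was -0.94 with both sets of factors, and -0.058 to 0.42 with 1 library left out, lowest without brackish water library 2 and highest without brackish water library 1. The cause of these shifts was not tested beyond the scalings named. The library of lowest depth bounds counting precision only, at 101 reads for its rarest member.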
